A study of Sus scrofa with 16 samples.

Results

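The ovaries of Canadian Large White sows with high and low fecundity were compared in the follicular phase of the estrous cycle, on day 20, when corpora lutea have regressed and the next follicles grow. The 8 libraries of day 20 were taken from the 16 libraries of the series by their titles. FH denotes the 4 sows with high fecundity (FH1 to FH4) and FL the 4 sows with low fecundity (FL1 to FL4). The remaining 8 libraries are the high (LH1 to LH4) and low fecundity sows (LL1 to LL4) of day 14, in the luteal phase. Of the 27370 annotated transcripts, 8296 reached an FPKM (fragments scaled by transcript length and library total) of 0.5 in at least 4 of the 8 follicular libraries and were tested.

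The groups were formed by the study from the total number of piglets born per litter in sows described as unrelated, and no animal received a treatment. The study describes its sows as chosen for like parity, although its records give the high fecundity sows more litters on the whole, and litter number was not part of any fit. Each library was made from ovarian tissue of 1 sow, with the follicles, stroma, vessels and blood cells it held, so that fewer cells of a type and less RNA per cell cannot be told apart. P-values measure the spread between these libraries, which holds counting error together with any difference between the sows.

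In the follicular phase, falling progesterone lets gonadotropins drive the last growth of antral follicles. Their granulosa and theca cells make steroids from cholesterol, and paracrine signals of the TGF-beta, insulin-like growth factor, WNT and NOTCH families pass between oocyte, granulosa and theca. The number of follicles that reach ovulation sets the upper limit of litter size in the pig.

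Low FPKM values were spaced by an even step, taken as the worth of a single fragment. From it the fragments behind each value were recovered, which gave 165798 to 304796 in each of the 8 libraries. The study reports far more clean reads per library than this, and the reason for the gap was not tested. At a transcript length of 2000 nt a single fragment came to between 1.85 and 3.47 FPKM, and differences of a few fragments were not resolved. Recovered fragments averaged 218949 ± 52798 (SD, n = 4) in FH and 249116 ± 40250 in FL (exact permutation test, two-sided p = 0.371). Across transcripts, pairs of libraries correlated in log2 values with a median r of 0.66 inside a group and 0.67 across the groups, so the 8 libraries did not separate by fecundity in this measure. As a check of the tissue, the granulosa transcription factor GATA4 was listed above 0 in 7 of the 8 libraries, at no more than 11.4 FPKM. FOXL2, which keeps the granulosa identity, was not tested, standing at 0, 5.05, 6.9 and 5.58 FPKM in FH1 to FH4, against 0 FPKM in all 4 FL libraries.

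FL2 and FL4 stood apart by a shared set of 31 transcripts, each above 4 times every other follicular library in both and resting on at least 10 fragments in each of them. The other 27 pairs of follicular libraries shared between 0 and 3 such transcripts. FL4 had the higher value in 29 of the 31, with a median ratio over FL2 of 2.88. The median FPKM of the set was 47.1 in FL2 and 151 in FL4. The high fecundity luteal library LH4 had a median of 61.5 FPKM and the highest luteal value for 30 of the 31. None of the other 13 libraries exceeded a median of 2.86 FPKM, so the set was high in 3 sows of different groups.

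Named members of the set cover unlike functions. The ribosomal protein transcript RPL35 stood at 262 FPKM in FL2, 1506 in FL4 and 97.3 in LH4, against at most 28.5 in the other follicular libraries. FAM173A stood at 288 FPKM in FL2, 705 in FL4 and 619 in LH4, with at most 4.89 in the other follicular libraries. CASP8, the initiator caspase of death receptors, stood at 123 FPKM in FL2, 600 in FL4 and 81.8 in LH4, and at most 10.22 in the other follicular libraries. The same 3 libraries were thus high for each. EP300, a histone acetyltransferase that serves as coactivator, stood at 32.2 FPKM in FL2, 126 in FL4 and 21.9 in LH4, and at most 1.99 in the other follicular libraries. The set took 1.87% of the recovered fragments of FL4, 0.612% of FL2 and 0.762% of LH4, and no more than 0.0428% in any other library. Of the 31 transcripts 28 were tested and 9 of these passed the threshold below, all lower in FH. The set was chosen for high values in FL2 and FL4, so this direction and count follow largely from the choice. Of all tested transcripts 2.47% passed lower in FH. What sets FL2, FL4 and LH4 apart was not tested. For transcripts named by the rule given with the processing, calls lost or not testable without both FL2 and FL4 are marked below.

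**Figure D1:**
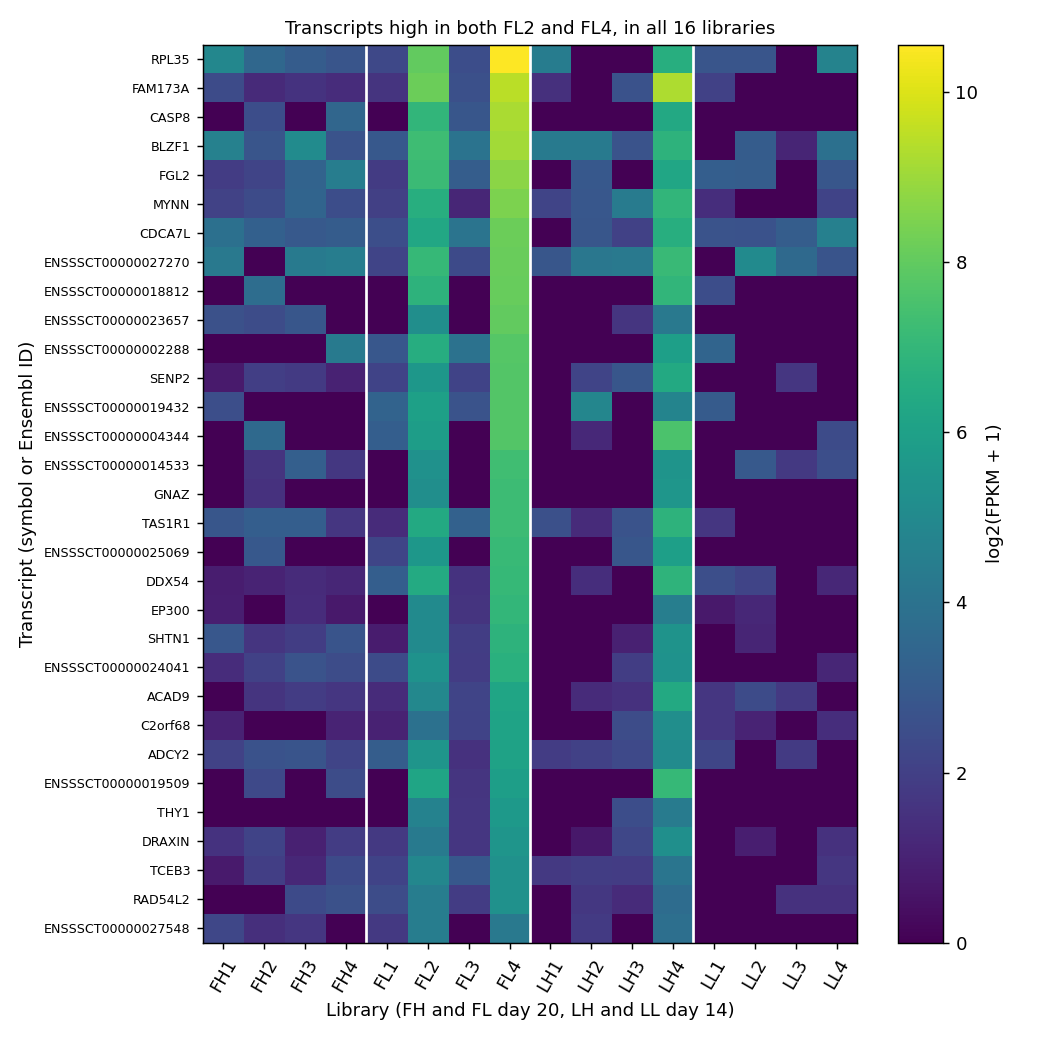
The 31 transcripts high in both FL2 and FL4 (vertical axis) in all 16 libraries (horizontal axis), coloured by log2(FPKM + 1). White lines part the 4 groups, and the bright columns are FL2, FL4 and the luteal library LH4, where 29 of the 31 exceeded 4 times every other luteal library.

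The comparison of FH with FL asks which ovarian transcripts differ with fecundity while follicles grow. At the threshold used in the study, an unadjusted p under 0.05 with a log2 fold change of at least 1 in size, 366 transcripts passed (4.41% of those tested), 161 higher in FH (1.94%) and 205 lower in FH (2.47%). With limma 0 transcripts had an adjusted p under 0.05, 396 (4.77%) had an unadjusted p under 0.05, and voom, a limma variant run on the recovered fragments, called 29 after adjustment. The smallest adjusted p was 0.0668. Every FH value lay above every FL value for 101 transcripts (1.22%) and below for 111 (1.34%). Of the 366 that passed, 43 stood at 0 in one whole group. Such transcripts met the filter only with all 4 libraries of the other group above 0, so the filter fixed their separation. The median log2 fold change of all tested transcripts was -0.03. A transcript is said to have passed, or to have risen or fallen, only at the unadjusted threshold, and with these settings none passed after adjustment in limma. Each p is two-sided and comes from limma, and each fold change is FH over FL on the scale of log2(FPKM + 1), with its SE after the ± sign.

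Leaving out both libraries that stood apart lowered the number of lower calls, in part through the filter. The filter still asked for 4 libraries, so a transcript seen only in FL could not be tested, while one seen only in FH could. The transcripts tested went from 8296 to 6649, and part of the drop was thus fixed in advance. Without both FL2 and FL4, an alternative chosen after seeing the data that sets 4 sows against 2, 235 transcripts passed, 150 higher and 85 lower in FH, and 1 passed after adjustment. Of the 366 calls 263 could still be tested, and 102 of them passed again, 82 higher and 20 lower. With a single library left out, 104 to 145 of the 205 lower calls were kept, the fewest without FL4 (104), FL2 (113) and FH3 (114), and the lower calls then numbered 219, 211 and 151 in all. FL4 held the highest FL value in 89 of the 205 lower calls, against 28 for FL1, 42 for FL2 and 46 for FL3. Among the 161 higher calls the highest FH value was in FH1 for 27, in FH2 for 51, in FH3 for 49 and in FH4 for 34.

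The calls differed by how many fragments a transcript had. Of 4726 transcripts with a mean below 3 fragments per library 4.42% passed, 107 higher and 102 lower. Of 2103 transcripts with a mean of 3 to 10 fragments 4.99% passed, 39 higher and 66 lower. Of 1144 transcripts with 10 to 100 fragments 4.11% passed, 10 higher and 37 lower. Higher and lower calls of that last class numbered 16 and 14 without FL2, 10 and 11 without FL4, and 25 and 4 without both. With each of the other libraries left out, its lower calls numbered 17 (without FH3) to 58 (without FL1). Of the 323 transcripts with at least 100 fragments, which took 75.6% of all recovered fragments, 5 passed (1.55%), all higher in FH. The median SE of the log2 fold change fell from 0.92 in the lowest class to 0.30 in the deepest.

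**Figure D2:**
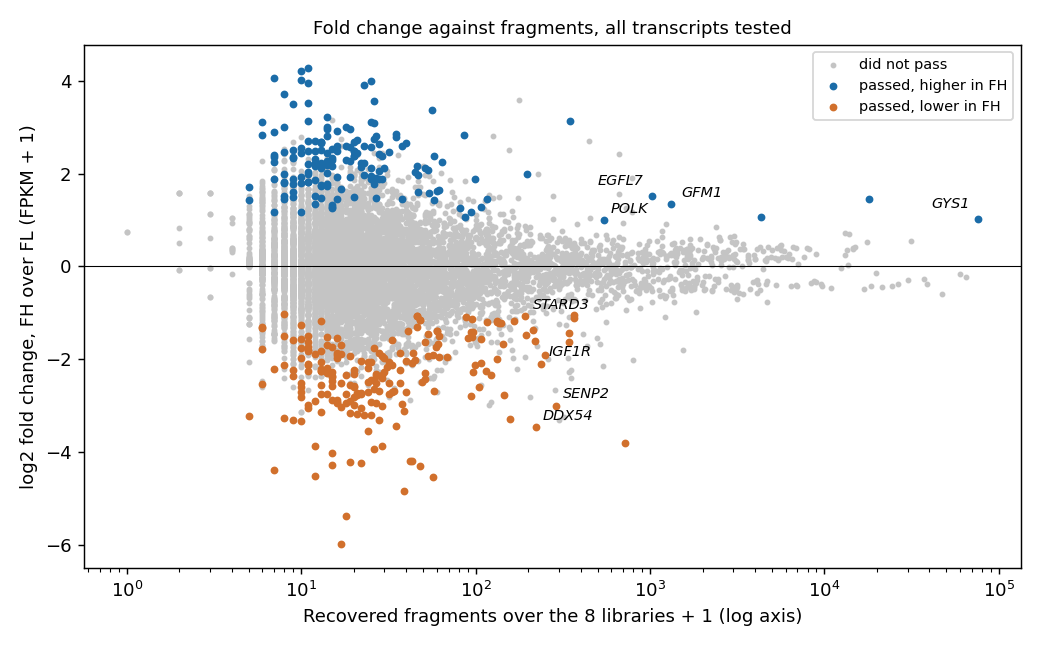
Log2 fold change of FH over FL on FPKM + 1 (vertical axis) against recovered fragments over the 8 libraries (horizontal log axis) for all 8296 tested transcripts. Blue and orange points passed the unadjusted threshold, and the spread of the points narrows as fragments increase.

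**Figure D3:**
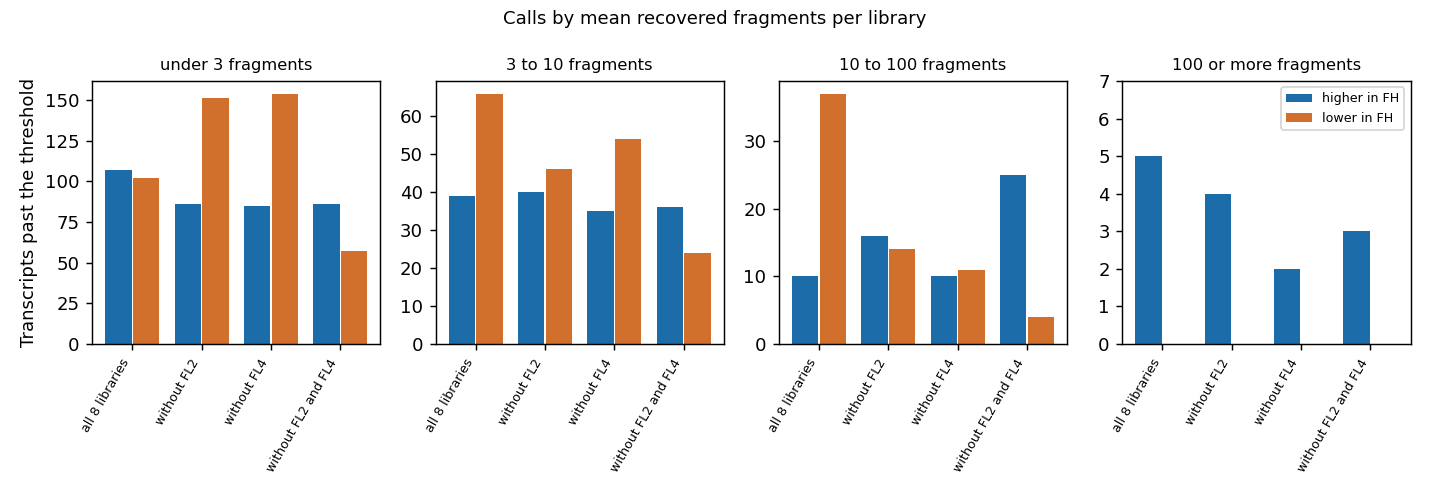
Number of transcripts past the threshold (vertical axis) by mean recovered fragments per library (panels, each with its own scale), with all 8 libraries and without FL2, FL4 or both. In the class of 10 to 100 fragments the 37 lower calls dropped to 4 without both libraries while the higher calls went from 10 to 25. Without both libraries a transcript seen only in FL could not be tested.

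Among the deepest transcripts GYS1, the glycogen synthase of muscle and most other tissues, held the most fragments of any that passed. GYS1 (ENSSSCT00000003502) stood at 9227, 6764, 6470.3 and 6977 FPKM in FH1 to FH4, against 6755, 2757, 4077 and 2194 FPKM in FL1 to FL4. FL1 reached the range of the FH libraries, and the other 3 FL libraries lay below all of FH. The mean level was 1.87 times that of FL, and the log2 fold change was 1.02 ± 0.29 (SE, adjusted p = 0.598). Without FH1, FL2 or FL4 in turn it lay between 0.78 and 0.91, under the size asked for, and without both FL2 and FL4 it was 0.47.

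GFM1, an elongation factor of mitochondrial translation, stood at 241, 166, 393 and 194 FPKM in FH1 to FH4, against 162, 192, 84.8 and 26.4 FPKM in FL1 to FL4. FH3 was the highest and FL4 the lowest, and FL2 alone lay within the range of FH. The log2 fold change was 1.35 ± 0.54 (SE, adjusted p = 0.914), and it missed the threshold without FH3, FL3 or FL4 (0.76 to 1.31) or without both FL2 and FL4 (0.99). EGFL7, a secreted factor of endothelial cells, stood at 204, 103, 933 and 396 FPKM in FH1 to FH4, against 168, 242, 47.9 and 57.9 FPKM in FL1 to FL4. FH3 was by far the highest, and FL1 and FL2 lay above FH2. The log2 fold change was 1.52 ± 0.65 (SE, adjusted p = 0.914), and it was lost without FH3, FH4, FL3 or FL4 (0.97 to 1.38).

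The other deep transcripts that passed have no symbol in the tables used here. ENSSSCT00000023429 stood at 5098, 874, 4399.8 and 1861 FPKM in FH1 to FH4, against 1255, 896, 565 and 1047 FPKM in FL1 to FL4, with FH1 and FH3 far above the rest and FH2 below FL1, FL2 and FL4 (log2 fold change 1.44 ± 0.46, adjusted p = 0.791). ENSSSCT00000005907 stood at 610.2, 536, 349 and 547 FPKM in FH1 to FH4, against 605, 177, 271 and 111 FPKM in FL1 to FL4, where FL1 alone of the FL libraries reached the FH range (log2 fold change 1.06 ± 0.43, adjusted p = 0.914). Its call was lost without FH1, FH2, FH4, FL2 or FL4 (0.70 to 1.03) and without both FL2 and FL4 (0.30).

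In the deepest class a further set of transcripts had p under 0.05 with fold changes smaller than the threshold. A total of 25 had p under 0.05 (7.74% of the class), 9 higher and 16 lower in FH, and 5 of the 25 had no overlap. A small p itself favours separation: 2.56% of all tested transcripts had no overlap, and 136 of the 366 that passed. The 16 lower transcripts had log2 fold changes from -0.97 to -0.38. TNFRSF19, a receptor of the tumour necrosis factor family, was one of them, at 657, 832, 446 and 685 FPKM in FH1 to FH4, against 871, 1054, 974 and 783 FPKM in FL1 to FL4. FH2 overlapped FL4, and the log2 fold change was -0.52 ± 0.24 (SE, adjusted p = 0.914). FEZ2, a homologue of an axon growth protein, was among the higher transcripts, at 2589.6, 1286, 1813 and 1268 FPKM in FH1 to FH4, against 1269, 902, 1044 and 901 FPKM in FL1 to FL4. The FH values were at or above the FL maximum except for FH4, which lay just below FL1, and the log2 fold change was 0.71 ± 0.25 (SE, adjusted p = 0.914). In the luteal sows, which are other animals, 15 of the 16 lower transcripts had a fold change of LH over LL above 0, and 0 of them had p under 0.05 there. Of all 323 transcripts of the class 203 had a luteal fold change above 0. Of the 9 higher transcripts 5 lay above 0 and 4 below, and 2 had p under 0.05.

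The remaining abundant transcripts with a symbol did not pass. ND6, a mitochondrially encoded subunit of respiratory complex I whose DNA is also transcribed on the opposite strand, was the most abundant, at 104509, 44973, 74963 and 47155 FPKM in FH1 to FH4, against 105147, 96514, 78872 and 109496 FPKM in FL1 to FL4. FH2, FH3 and FH4 lay below all FL libraries, while FH1 lay within their range (log2 fold change -0.5998 ± 0.23, adjusted p = 0.914). KL, which encodes the FGF23 coreceptor klotho, stood at 7286, 8187, 5469.6 and 6497 FPKM in FH1 to FH4, against 7589.5, 7991, 8478 and 6517 FPKM in FL1 to FL4, with overlapping groups and a log2 fold change of -0.17 ± 0.17. BMP6, a growth factor made by oocytes and granulosa cells, stood at 1293, 1363, 2145 and 1565 FPKM in FH1 to FH4, against 1759, 1429, 1124 and 701 FPKM in FL1 to FL4, and the groups overlapped with a log2 fold change of 0.39 ± 0.28. ITPKC, PHOSPHO2, ND4 and CAND2, also among the 10 most abundant, had log2 fold changes between -0.45 and 0.52. The last of them, IFN-OMEGA-6, stood at 647, 870.3, 1015 and 1195 FPKM in FH1 to FH4, against 1343, 2158, 1022 and 1624 FPKM in FL1 to FL4, with FH4 alone reaching the range of FL (log2 fold change -0.704 ± 0.27, adjusted p = 0.914).

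The leading named transcripts, those with a symbol, at least 20 recovered fragments and the smallest p per direction, were mostly low in level. Of the 366 transcripts that passed, 99 met these conditions before ranking, 39 higher and 60 lower in FH. Among the higher ones, PIP4K2C, a kinase of inositol lipids, stood at 15.2, 18.2, 5.4 and 8.86 FPKM in FH1 to FH4, against 0 FPKM in all 4 FL libraries. It rested on 25 fragments, all of them in FH (adjusted p = 0.285). TAS2R39, a bitter taste receptor, stood at 13.4, 29.3, 24.2 and 71.5 FPKM in FH1 to FH4, against 0, 11.5, 0 and 0 FPKM in FL1 to FL4. The FH libraries lay above all FL libraries, of which FL2 alone was above 0, and the log2 fold change was 3.99 ± 0.95 (SE, adjusted p = 0.357).

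CH242-79N16.1, a transcript known by its clone name, stood at 226, 60.3, 81.8 and 226 FPKM in FH1 to FH4, against 57.7, 15.8, 31.03 and 32.4 FPKM in FL1 to FL4. FH2 and FL1 were the closest values of the groups, which did not overlap, and the log2 fold change was 1.99 ± 0.53 (SE, adjusted p = 0.553). SLAIN2, which supports the growth of microtubule ends, stood at 16.99, 9, 18.1 and 9.88 FPKM in FH1 to FH4, against 1.61, 0, 1.94 and 2.26 FPKM in FL1 to FL4. Every FH value was over 3 times the highest FL value (log2 fold change 2.64 ± 0.79, adjusted p = 0.683). IFN-ALPHA-17, a type I interferon (ENSSSCT00000035220), stood at 155, 165, 184 and 153 FPKM in FH1 to FH4, against 12.9, 105, 0 and 42.5 FPKM in FL1 to FL4. The 4 FH values lay close together while those of FL ranged widely below them (log2 fold change 3.37 ± 1.04, adjusted p = 0.722). A further transcript with this symbol stood at 0, 14.99, 0 and 162 FPKM in FH1 to FH4, against 21.2, 0, 0 and 8.31 FPKM in FL1 to FL4, with overlapping groups (0.91 ± 1.599), and fragments of such near-identical genes may be assigned to the wrong copy.

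NEURL2, a substrate adaptor of ubiquitin ligases, stood at 19.2, 7.61, 17.03 and 44.6 FPKM in FH1 to FH4, against 3.64, 0, 2.18 and 5.11 FPKM in FL1 to FL4. The groups did not overlap, FH4 was the highest and FL2 was at 0, and the log2 fold change was 2.66 ± 0.82 (SE, adjusted p = 0.722). GNG2, a gamma subunit of G proteins, stood at 4.25, 14.1, 3.75 and 9.26 FPKM in FH1 to FH4, against 2.02, 0, 0 and 0 FPKM in FL1 to FL4. FL1 was the only FL library above 0 (log2 fold change 2.58 ± 0.84, adjusted p = 0.826), which no longer passed without both FL2 and FL4 (2.18).

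Among the lower ones, RASSF8, a Ras-association domain protein, stood at 0 FPKM in all 4 FH libraries, against 4.95, 23.7, 5.92 and 108 FPKM in FL1 to FL4. It rested on 42 fragments, all in FL, with the most in FL4 (adjusted p = 0.368). PAQR5, a membrane receptor of progestins, stood at 4.66, 0, 0 and 0 FPKM in FH1 to FH4, against 4.42, 12.1, 21.2 and 34.1 FPKM in FL1 to FL4. FH1 slightly exceeded FL1, and the other FH libraries were at 0 (log2 fold change -3.31 ± 0.95, adjusted p = 0.622). OR2L13, an olfactory receptor, stood at 0, 19.3, 0 and 0 FPKM in FH1 to FH4, against 50.9, 18.9, 16.5 and 19.4 FPKM in FL1 to FL4. FH2 reached the level of 3 FL libraries, the other FH libraries were at 0, and FL1 was the highest (log2 fold change -3.54 ± 1.02, adjusted p = 0.624).

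OR5AK2, also an olfactory receptor, stood at 4.83, 0, 8.72 and 7.02 FPKM in FH1 to FH4, against 45.5, 24.8, 26.98 and 19.1 FPKM in FL1 to FL4. All FH libraries lay below all FL libraries (log2 fold change -2.63 ± 0.78, adjusted p = 0.632). LYPD1, a membrane-anchored protein of the Ly6 family, stood at 2.17, 0, 0 and 0 FPKM in FH1 to FH4, against 2.06, 19.7, 9.88 and 60.7 FPKM in FL1 to FL4. FH1 slightly exceeded FL1, and FL4 was the highest (log2 fold change -3.43 ± 1.02, adjusted p = 0.665). ZNF114, a zinc finger protein, stood at 0 FPKM in all 4 FH libraries, against 1.77, 16.98, 2.13 and 29.8 FPKM in FL1 to FL4. Its 21 fragments were all in FL, most of them in FL2 and FL4 (adjusted p = 0.691).

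MDFI, an inhibitor of MyoD-family transcription factors, stood at 2.51, 0, 0 and 3.65 FPKM in FH1 to FH4, against 21.8, 9.76, 11.4 and 10 FPKM in FL1 to FL4. All FH libraries lay below all FL libraries and FL1 was the highest (log2 fold change -2.75 ± 0.86, adjusted p = 0.737). ERMARD, a protein of the endoplasmic reticulum membrane, stood at 0.76, 0, 0 and 0 FPKM in FH1 to FH4, against 2.17, 7.91, 2.61 and 11.1 FPKM in FL1 to FL4. FH1 was the only FH library above 0, on 1 fragment, and FL2 and FL4 were the highest (log2 fold change -2.36 ± 0.75, adjusted p = 0.776). Without both FL2 and FL4, OR5AK2 (log2 fold change -2.97) and MDFI (-3.06) still passed, and the other 6 of these 8 transcripts no longer met the filter. Among the luteal libraries RASSF8, ZNF114 and ERMARD were above 0 in LH4 alone (6.94, 7.44 and 7.05 FPKM). LYPD1 and PAQR5 had their highest luteal value there (34.6 and 24.8 FPKM), while OR2L13, OR5AK2 and MDFI were higher in another luteal library. What these transcripts share with the set high in FL2, FL4 and LH4 was not tested.

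**Figure D4:**
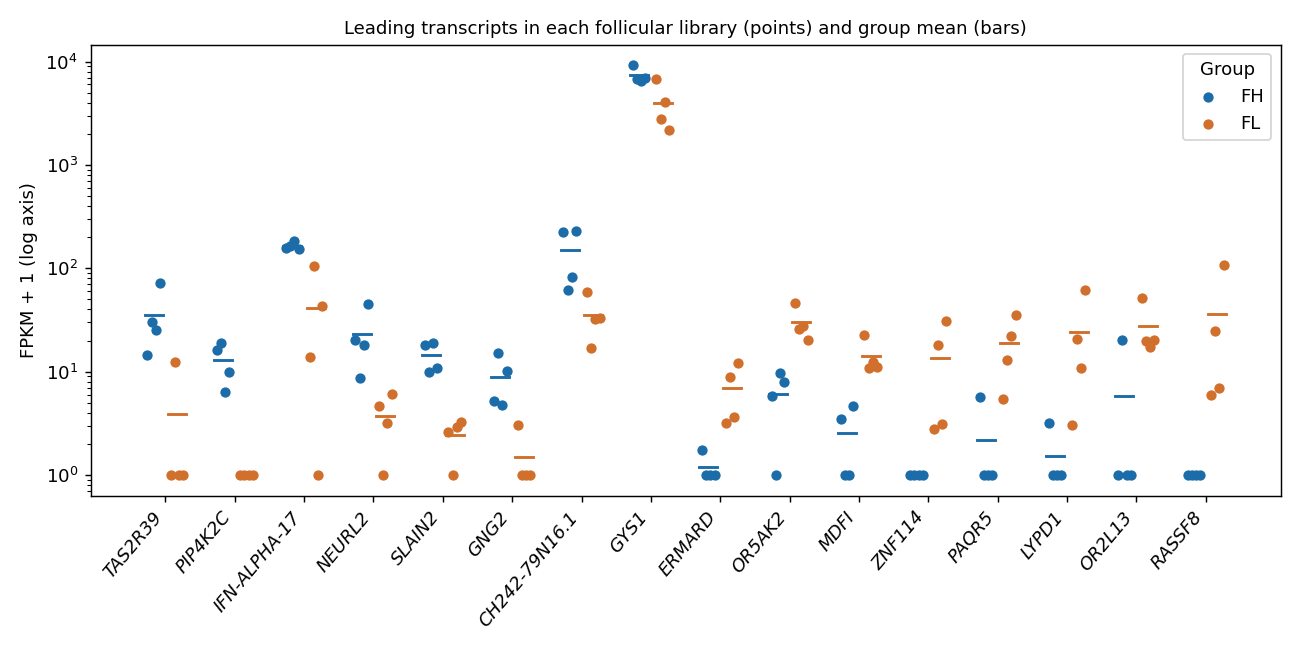
FPKM + 1 (vertical log axis) of the 8 leading named transcripts per direction in each follicular library, with FH in blue, FL in orange and bars at the group mean. GYS1 sits far above the rest in every library, while most of the others sit at 1, an FPKM of 0, in several libraries of the lower group.

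Among the transcripts that passed, those without overlap and with the most fragments in the higher group are given next. POLK, a DNA polymerase that copies past damaged bases, stood at 87.5, 70.9, 127 and 104 FPKM in FH1 to FH4, against 60.4, 38.1, 48.8 and 43.5 FPKM in FL1 to FL4. The lowest FH library, FH2, lay above the highest FL library, FL1, and the FH mean was 2.04 times that of FL (log2 fold change 1.002 ± 0.36, adjusted p = 0.914). Its log2 fold change was 0.87 to 0.97 without FH3, FH4, FL2 or FL4, and 0.80 without both FL2 and FL4, below the size asked for. TLR10, a Toll-like receptor, stood at 19.6, 29.5, 46.4 and 38.1 FPKM in FH1 to FH4, against 14.96, 15.4, 14.98 and 7 FPKM in FL1 to FL4. FH1 was the closest to FL (log2 fold change 1.28 ± 0.52, adjusted p = 0.914), and the call was lost without FH3, FH4 or FL4 (1.03 to 1.2) or without both FL2 and FL4 (1.04).

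FUT2, a fucosyltransferase of epithelial glycans, stood at 60.7, 41.9, 56.8 and 75.6 FPKM in FH1 to FH4, against 32.9, 33.3, 22.9 and 15.3 FPKM in FL1 to FL4. The FH libraries all lay above the FL libraries (log2 fold change 1.17 ± 0.44, adjusted p = 0.914), and the call was lost without FH4 or FL4 (0.95 to 1.04) or without both FL2 and FL4 (1.04). ENSSSCT00000012307 stood at 33.6, 51.7, 69.9 and 61.03 FPKM in FH1 to FH4, against 23.9, 28.99, 15.8 and 33.5 FPKM in FL1 to FL4. FH1 and FL4 lay side by side (log2 fold change 1.05 ± 0.45, adjusted p = 0.914), and it no longer passed without FH2, FH3, FH4, FL1 or FL3 (0.85 to 1.06).

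Lower in FH without overlap, SENP2, which removes SUMO from proteins, stood at 0.72, 2.86, 2.51 and 1.04 FPKM in FH1 to FH4, against 3.42, 46.9, 3.3 and 212 FPKM in FL1 to FL4. FL2 and FL4 carried nearly all of its fragments, and it belongs to the set high in these libraries (log2 fold change -2.999 ± 1.15, adjusted p = 0.914). It no longer passed without FL2 or FL4 (-2.6 to -1.88) or without both (-0.73). DDX54, a nucleolar RNA helicase of the same set, stood at 0.82, 1.09, 1.45 and 1.19 FPKM in FH1 to FH4, against 7.81, 87.8, 1.88 and 134 FPKM in FL1 to FL4. FL1 and FL3 were nearer to FH than to FL2 and FL4 (log2 fold change -3.47 ± 1.12, adjusted p = 0.812), and without both the log2 fold change was -1.24 and no longer passed.

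STARD3, which moves cholesterol at the membrane of late endosomes, stood at 24.2, 31.8, 16.3 and 21.6 FPKM in FH1 to FH4, against 37.99, 59.01, 50.9 and 50.9 FPKM in FL1 to FL4. All FL libraries exceeded all FH libraries, and the FL mean was 2.12 times that of FH (log2 fold change -1.07 ± 0.43, adjusted p = 0.914). The call was lost without FH3, FL2 or FL3 (-1.05 to -0.92), without both FL2 and FL4 (-0.92), and under median-ratio scaling, quantile normalization or a fit of all 4 groups. ATP6V1F, a subunit of the proton pump that acidifies endosomes, stood at 53.6, 29.8, 75.1 and 56.6 FPKM in FH1 to FH4, against 115, 115, 170.4 and 80.2 FPKM in FL1 to FL4. FH3 and FL4 were the closest values (log2 fold change -1.17 ± 0.397, adjusted p = 0.896), and the call was lost on size alone without FH2 or FL3 (-0.98 to -0.91).

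ZNF565, tied with ATP6V1F for fragments, stood at 27.4, 19.7, 35.5 and 39.8 FPKM in FH1 to FH4, against 56.6, 83.9, 50.8 and 92.6 FPKM in FL1 to FL4. FL2 and FL4 were the highest and FL1 and FL3 still exceeded all FH libraries (log2 fold change -1.19 ± 0.42, adjusted p = 0.914). Without both FL2 and FL4 its log2 fold change was -0.84. ENSSSCT00000030741 stood at 50.7, 25.8, 18.8 and 34.4 FPKM in FH1 to FH4, against 67.2, 86.5, 64.6 and 65.3 FPKM in FL1 to FL4. FL2 was the highest and FH1 the FH library nearest to FL (log2 fold change -1.18 ± 0.42, adjusted p = 0.914), and without FH3 the log2 fold change was -0.96, below the size asked for. Without both FL2 and FL4 it was -1.09 and no longer passed.

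Gene lists were read on the transcripts that could be named. Of the 1988 tested transcripts with a symbol 179 passed, but part of the symbols came from the tables in which the study listed its differential transcripts, so passing transcripts were named more often than others. Of the 1422 named from the microRNA target table alone, 21 passed (1.48%). The counts of members that passed are therefore descriptions.

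In the steroid list, which holds genes of cholesterol uptake, cholesterol synthesis and steroid synthesis, 14 of 39 genes were tested, and 1 passed, STARD3, lower in FH. The median log2 fold change of the 14 was -0.33, beside -0.03 for all transcripts, and it lay between -0.49 and -0.12 on leaving out each library and at -0.05 without both FL2 and FL4. CYP21A2, the steroid 21-hydroxylase, had the highest level of the list, at 173, 105, 148 and 65.1 FPKM in FH1 to FH4, against 110.2, 212, 137 and 388 FPKM in FL1 to FL4. FL4 was the highest and FH4 the lowest, and the groups overlapped (-0.699 ± 0.43). HSD17B12 stood at 0, 13.6, 3.35 and 8.93 FPKM in FH1 to FH4, against 5.86, 21.4, 18.8 and 27.1 FPKM in FL1 to FL4 (-1.77 ± 0.89), and SRD5A1, a steroid 5-alpha reductase, at 2.04, 1.59, 0 and 1.48 FPKM in FH1 to FH4, against 3.88, 1.33, 15.2 and 13.6 FPKM in FL1 to FL4 (-1.78 ± 0.93). Neither passed.

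Of 35 follicle, granulosa and oocyte genes 9 were tested and 1 passed, NANOS1, an RNA-binding protein of germ cells. NANOS1 stood at 13.4, 23.5, 15.8 and 29.1 FPKM in FH1 to FH4, against 0, 0, 2.53 and 17.8 FPKM in FL1 to FL4. FL4 lay within the FH range and the other FL libraries were at or near 0 (log2 fold change 2.85 ± 0.95, adjusted p = 0.866). LHX9, a transcription factor of gonad development, stood at 12.2, 6.42, 0 and 24.8 FPKM in FH1 to FH4, against 0, 0, 5.52 and 0 FPKM in FL1 to FL4. FL3 was the only FL library above 0, and LHX9 did not pass (2.15 ± 1.11). GDF9, an oocyte growth factor, stood at 1.49, 9.84, 0 and 15.1 FPKM in FH1 to FH4, against 0, 1.93, 0 and 0 FPKM in FL1 to FL4 and did not pass (1.803 ± 0.92). Of the 9 tested, 4 had a log2 fold change above 0 and 5 below. Those below were GATA6 (-1.22 ± 0.77), FOXO1 (-0.79 ± 0.70), WEE2 (-0.57 ± 1.03), FOXO3 (-0.44 ± 1.03) and GATA4 (-0.27 ± 0.90), and none of them passed. The median of the list was -0.27 and turned above 0 without FH3, FH4, FL1 (0.74) or FL4, so its sign rested on single libraries.

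The 19 TGF-beta and BMP signalling genes tested, of 35, held no call, with a median of -0.05. Among ligands, GDF11 stood at 31.2, 62.1, 39.1 and 59.6 FPKM in FH1 to FH4, against 32.8, 65.3, 51.7 and 47.2 FPKM in FL1 to FL4, with the groups at the same level (-0.05 ± 0.42). Among receptors, TGFBR1 had a log2 fold change of -0.67 ± 0.78 and BMPR2 of 0.55 ± 1.17. Among signal transducers, SMAD3 stood at 8.63, 19.7, 4.35 and 17.9 FPKM in FH1 to FH4, against 5.29, 33.03, 25.5 and 53.6 FPKM in FL1 to FL4 (-0.99 ± 0.74). THBS1, a matrix protein that activates latent TGF-beta, stood at 5.56, 3.29, 3.27 and 2.7 FPKM in FH1 to FH4, against 4.71, 19.4, 5.68 and 51.3 FPKM in FL1 to FL4, with FL2 and FL4 the highest (-1.63 ± 0.82).

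Of 32 insulin and IGF signalling genes 15 were tested, with a median of 0.21 that became -0.09 without FH2, and 1 passed, the receptor IGF1R, lower in FH. IGF1R stood at 1.08, 1.74, 1.84 and 2.66 FPKM in FH1 to FH4, against 2.49, 18.8, 4.81 and 47.6 FPKM in FL1 to FL4. FL2 and FL4 were high and FL1 lay below FH4 (log2 fold change -2.09 ± 0.93, adjusted p = 0.914). The call was lost on leaving out any FH library, FL2 or FL4 (-2.22 to -1.41), and without both FL2 and FL4 the log2 fold change was -0.70. PIK3CA, a catalytic subunit of phosphoinositide 3-kinase, stood at 2.58, 379, 12.1 and 91.1 FPKM in FH1 to FH4, against 0, 5.6, 5.91 and 19.5 FPKM in FL1 to FL4. FH2 and FH4 were far above the rest, FH1 and FH3 lay within FL, and it did not pass (2.69 ± 1.28). TSC2, a brake on the mTOR kinase, stood at 142, 269, 205 and 189 FPKM in FH1 to FH4, against 158, 227, 192 and 119 FPKM in FL1 to FL4, with overlapping groups (0.21 ± 0.32).

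The 18 WNT signalling genes tested, of 34, had a median of 0.29 and none passed. FZD5, a WNT receptor of the network drawn by the study, stood at 4.68, 7.76, 8.28 and 6.81 FPKM in FH1 to FH4, against 2.23, 4.58, 0 and 0 FPKM in FL1 to FL4. All FH libraries exceeded all FL libraries, by the least for FH1 over FL2, and the unadjusted p lay just above 0.05 (log2 fold change 1.91 ± 0.89, adjusted p = 0.914). It passed under 8 alternatives, among them median-ratio scaling, no filter, all 4 groups in one fit, voom and leaving out FL1 or FL2 (2.13 to 2.39). APC2, a part of the beta-catenin destruction pathway, stood at 35.7, 62.3, 46.98 and 71.7 FPKM in FH1 to FH4, against 46.1, 71.05, 48.01 and 26.9 FPKM in FL1 to FL4 (0.201 ± 0.43). EP300, also listed here as a coactivator, had a log2 fold change of -2.67 ± 1.33, and of -0.05 without both FL2 and FL4.

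The other network genes of the study were chosen there on these samples and are no independent evidence of a direction. GRIN2D, a glutamate receptor subunit, stood at 1.83, 7.31, 6.47 and 5.33 FPKM in FH1 to FH4, against 0.87, 2.39, 1.05 and 0 FPKM in FL1 to FL4. FH1 lay below FL2 and the other FH libraries above all of FL (log2 fold change 1.605 ± 0.83, adjusted p = 0.914), and it passed under 5 alternatives, among them quantile normalization, voom and leaving out FH1 (1.95). IGF2BP2, an mRNA-binding protein, stood at 0, 21.7, 0 and 0 FPKM in FH1 to FH4, against 10.8, 13.1, 12.9 and 0 FPKM in FL1 to FL4. FH2 was the highest of all 8 and the other FH libraries were at 0 (-1.67 ± 1.25), and the call was reached without FL4 (-2.6) and with voom. PAQR7, a membrane progestin receptor, was not tested, at 12.3, 0, 15.6 and 0 FPKM in FH1 to FH4, against 0 FPKM in all 4 FL libraries. The study describes PAQR7 as lower in FH than in FL, whereas the values above 0 here are in FH alone. The reason for this was not tested.

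Of 20 NOTCH signalling genes 11 were tested, with a median of 0.28 that became -0.10 without FL4, and 1 passed. MIB2, a ubiquitin ligase that acts on NOTCH ligands, stood at 2.34, 4.67, 2.07 and 1.7 FPKM in FH1 to FH4, against 0, 1.53, 0 and 0 FPKM in FL1 to FL4. The groups did not overlap, on 8 fragments in all (log2 fold change 1.49 ± 0.61, adjusted p = 0.914), and the call was lost without FL1, FL3 or FL4 (1.38 each). JAG1, a NOTCH ligand, stood at 4.21, 5.95, 3.97 and 1.75 FPKM in FH1 to FH4, against 4.26, 14.2, 1.77 and 27.4 FPKM in FL1 to FL4 (-0.92 ± 0.88), with FL2 and FL4 the highest. HEY2, a NOTCH target, stood at 4.57, 12.1, 5.4 and 17.7 FPKM in FH1 to FH4, against 0, 3.96, 5.21 and 2.03 FPKM in FL1 to FL4 and did not pass (1.64 ± 0.88).

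Of 34 genes of ovulation and luteal remodelling 24 were tested, with a median of -0.34, and 2 fell in FH, PAQR5 (described above) and HIF1A. HIF1A, the oxygen-regulated subunit of hypoxia-inducible factor, stood at 0, 6.96, 0 and 0 FPKM in FH1 to FH4, against 8.73, 3.42, 9 and 7 FPKM in FL1 to FL4. FH2 lay within FL and the other FH libraries were at 0 (log2 fold change -2.19 ± 0.94, adjusted p = 0.914), which no longer passed without FH1, FH3, FH4, FL1 or FL3 (-2.07 to -1.94) and could not be tested without both FL2 and FL4. HAS1, which makes hyaluronan, stood at 36.9, 26.9, 42.6 and 10.7 FPKM in FH1 to FH4, against 38.6, 60.01, 39.97 and 39.4 FPKM in FL1 to FL4. FL2 was the highest, and the groups overlapped (-0.72 ± 0.5001). The protease ADAMTS9 stood at 7.84, 42.4, 22.1 and 74.4 FPKM in FH1 to FH4, against 28.9, 19.8, 30.01 and 6.29 FPKM in FL1 to FL4, also with overlap (0.56 ± 0.71).

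Of 43 collagen and matrix genes 23 were tested, with a median of -0.17 that became 0.02 without FL2, and 2 rose in FH. COL5A1, a chain of fibrillar collagen V, stood at 1.23, 0.91, 4.68 and 4.29 FPKM in FH1 to FH4, against 0 FPKM in all 4 FL libraries. Its 12 fragments were all in FH (adjusted p = 0.704). FBN1, the main chain of microfibrils, stood at 3.36, 2.56, 0.85 and 0.7 FPKM in FH1 to FH4, against 0.46, 0, 0 and 0 FPKM in FL1 to FL4. FL1 was the only FL library above 0 (log2 fold change 1.27 ± 0.48, adjusted p = 0.914), which no longer passed without both FL2 and FL4 (1.13). EFEMP2, a protein of elastic fibres with the highest level of the list, stood at 36.6, 42.4, 28.1 and 62.6 FPKM in FH1 to FH4, against 44.4, 47.8, 58.95 and 22.9 FPKM in FL1 to FL4, with overlapping groups (-0.02 ± 0.45).

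Of 35 cell cycle genes 27 were tested, with a median of -0.08 that lay between -0.35 and 0.09 on leaving out each library, and 1 rose and 1 fell. WEE1, the kinase that delays entry into mitosis, stood at 11.2, 9.46, 21.6 and 19.2 FPKM in FH1 to FH4, against 6.79, 1.33, 3.5 and 6.8 FPKM in FL1 to FL4. FH2 and FL4 were the closest values of the groups, which did not overlap (log2 fold change 1.63 ± 0.702, adjusted p = 0.914), and the call was lost without FH1, FH3, FH4, FL2 or FL3 (1.26 to 1.75) or without both FL2 and FL4 (1.39). FOXM1, a transcription factor of mitotic genes, stood at 0 FPKM in all 4 FH libraries, against 4.14, 1.42, 6.23 and 13.1 FPKM in FL1 to FL4. It rested on 19 fragments, all in FL (adjusted p = 0.598), and it could not be tested without both FL2 and FL4. CDC20, an activator of the anaphase-promoting complex and the highest of the list, stood at 129, 74.02, 151 and 74.1 FPKM in FH1 to FH4, against 57.5, 121, 86.3 and 73.6 FPKM in FL1 to FL4, with overlapping groups (0.32 ± 0.38).

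Of 26 genes of ribosomal proteins and translation 14 were tested, with a median of -0.03 that lay between -0.41 and 0.33 on leaving out each library. GFM1 rose, as described above, and RPL6, a protein of the large ribosomal subunit, fell, at 0, 20.04, 0 and 7.42 FPKM in FH1 to FH4, against 14.4, 26.2, 28.5 and 26.9 FPKM in FL1 to FL4. FH2 overlapped the lowest FL library, FL1 (log2 fold change -2.73 ± 0.97, adjusted p = 0.914), which no longer passed without both FL2 and FL4 (-2.55). Of 28 genes of oxidative phosphorylation 9 were tested, with a median of -0.28 that became 0.18 without both FL2 and FL4. COQ6, which acts in the synthesis of coenzyme Q, was the one that passed, at 1.82, 0, 0 and 0 FPKM in FH1 to FH4, against 3.46, 7.1, 2.08 and 16.99 FPKM in FL1 to FL4. FH1 was the only FH library above 0, on 1 fragment (log2 fold change -2.37 ± 0.85, adjusted p = 0.914), and it could not be tested without both FL2 and FL4.

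**Figure D5:**
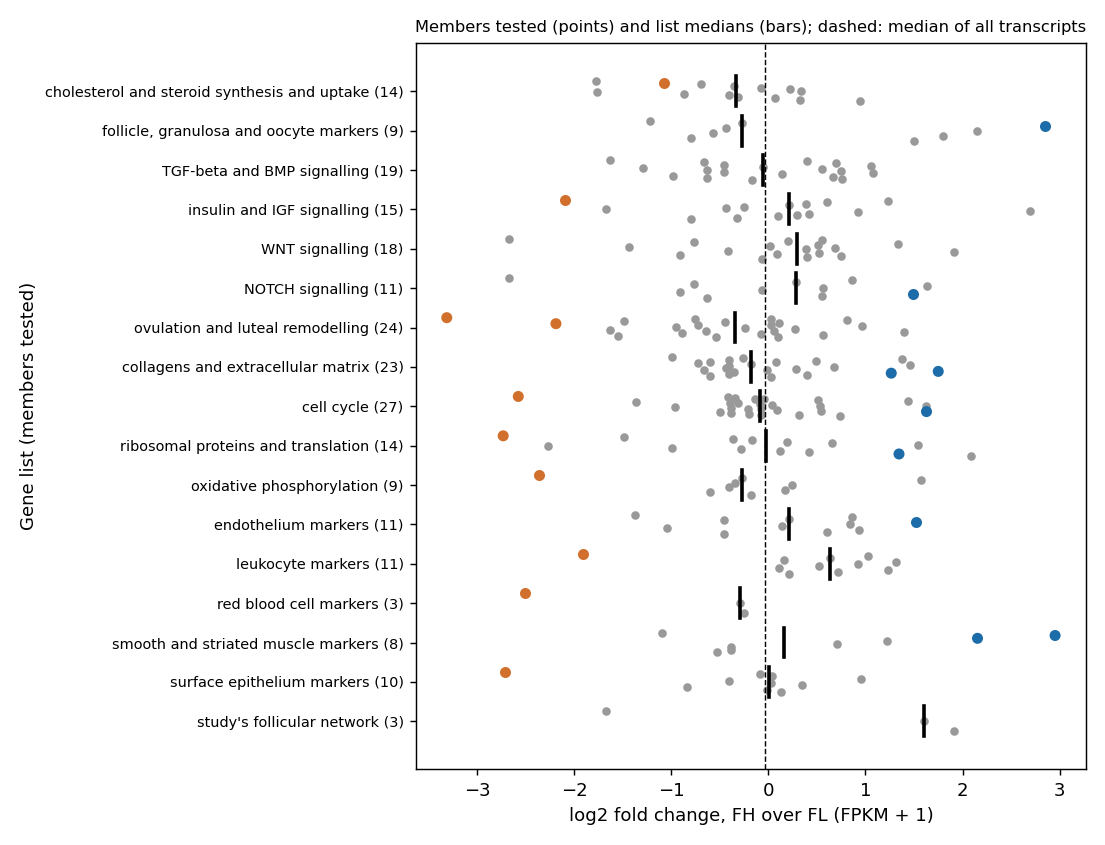
Log2 fold change of FH over FL on FPKM + 1 (horizontal axis) for the tested members (points) of each gene list (vertical axis, tested members in brackets), with bars at the list medians and a dashed line at the median of all transcripts. Blue and orange points passed the threshold, and at most 2 members of any list did so.

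Markers of cell types in the tissue are given as counts and summed levels. Of 20 endothelial markers 11 were tested, with a median of 0.21 that became 0.65 without FL2, and EGFL7 passed. PEAR1 stood at 86.5, 115, 77.1 and 130.3 FPKM in FH1 to FH4, against 92.9, 166, 141 and 164 FPKM in FL1 to FL4 (-0.46 ± 0.34), and GPR182 at 77.6, 89.4, 63.6 and 98.7 FPKM in FH1 to FH4, against 39.8, 29.3, 73.02 and 47.2 FPKM in FL1 to FL4 (0.85 ± 0.396). The summed levels were 402 to 1161 FPKM in FH and 323 to 562 in FL, so the groups overlapped, and PECAM1 and CLDN5, which define the type, were at 0 in all 8 libraries.

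Of 32 leukocyte markers 11 were tested, and 10 of these 11 had a log2 fold change above 0, with a median of 0.64 that ranged from 0.38 to 0.90 on leaving out each library. The exception, IL7R, a receptor of lymphocytes, was the member that passed, at 2.88, 81.6, 17.8 and 24.7 FPKM in FH1 to FH4, against 57, 64.3, 96.7 and 83.4 FPKM in FL1 to FL4. FH2 lay within FL and FH1 was the lowest (log2 fold change -1.91 ± 0.73, adjusted p = 0.914), and the call was lost without FH1 or FL3 (-1.79 to -1.13) or without both FL2 and FL4 (-1.92). CD68, a marker of macrophages, stood at 43.7, 22.99, 24.1 and 73.3 FPKM in FH1 to FH4, against 22.3, 47.8, 53.1 and 16.9 FPKM in FL1 to FL4 (0.22 ± 0.54). The summed levels were 98.9 to 212 FPKM in FH and 156 to 232 in FL, with CD53, CD72 and CXCR3 at 0 throughout.

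Of 10 red blood cell markers 3 were tested, with a median of -0.29, and KLF1, a transcription factor of erythroid cells, fell. KLF1 stood at 0 FPKM in all 4 FH libraries, against 2.33, 3.19, 16.7 and 3.27 FPKM in FL1 to FL4. Its 9 fragments were all in FL, with the most in FL3 (adjusted p = 0.622), and it could not be tested without both FL2 and FL4. The summed levels of the list were 1.2 to 11.2 FPKM in FH and 5.55 to 22.2 in FL, and ALAS2 and KEL were at 0 in all 8 libraries.

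Of 19 smooth and striated muscle markers 8 were tested, with a median of 0.16 that became -0.06 without FL1 and 0.97 without FL4, and 2 rose. RGS5, a marker of pericytes, stood at 5.71, 22.6, 6.75 and 8.29 FPKM in FH1 to FH4, against 0, 0, 2.17 and 0 FPKM in FL1 to FL4. FL3 was the only FL library above 0 (log2 fold change 2.95 ± 0.87, adjusted p = 0.632). SMTN, a contractile smooth muscle protein, stood at 3.34, 5.91, 1.97 and 8.09 FPKM in FH1 to FH4, against 1.06, 0, 0 and 0 FPKM in FL1 to FL4. FL1 was the only FL library above 0 (log2 fold change 2.15 ± 0.71, adjusted p = 0.866), which no longer passed without both FL2 and FL4 (1.89). The summed levels were 27.9 to 44.6 FPKM in FH and 11.9 to 107 in FL, and SYNPO2, at 7.99, 7.72, 2.56 and 4.22 FPKM in FH1 to FH4, against 2.08, 9.48, 13.3 and 65.1 FPKM in FL1 to FL4, had its highest value in FL4 (-1.098 ± 0.89).

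Of 20 surface epithelium markers 10 were tested, with a median of 0.01 that lay between -0.39 and 0.32 on leaving out each library, and PAX8, a transcription factor of the reproductive tract epithelium, fell. PAX8 stood at 0, 5.13, 0 and 11.4 FPKM in FH1 to FH4, against 25.8, 35.2, 4.39 and 25.8 FPKM in FL1 to FL4. FL3 lay below both FH libraries above 0, and the other FL libraries lay above all of FH (log2 fold change -2.71 ± 0.99, adjusted p = 0.914). The call was lost without FH1 or FL2 (-2.41 to -2.19) or without both FL2 and FL4 (-2.03). The summed levels were 31.1 to 136 FPKM in FH and 58.7 to 130 in FL, and EHF and PROM1 were at 0 in all 8 libraries. No cell type list separated the groups by its summed level, and the part of these cell types in the results was not tested.

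The luteal sows allow the same contrast in other animals. Of the 366 transcripts that passed, 187 were also tested in LH against LL. Of these, 83 had the same sign there (44.4%, beside 46.7% of the 4567 transcripts tested in both phases), and 21 had p under 0.05 (11.2%, beside 7.88%), 10 of the same sign and 11 of the opposite sign. NANOS1 had a luteal log2 fold change of 2.32 (adjusted p = 0.576), GFM1 of 1.18 (adjusted p = 0.607) and RPL6 of -2.42 (adjusted p = 0.516), each of the same sign as in the follicular phase. ATP6V1F, lower in FH than in FL, had a luteal log2 fold change of 2.09 (adjusted p = 0.293), and ENSSSCT00000023429, higher in FH, one of -1.29, each of the opposite sign. The difference between the phases, tested as an interaction over all 16 libraries, had an adjusted p under 0.05 for 1 of 11027 transcripts (0.00907%) and an unadjusted p under 0.05 for 784 (7.11%). For ATP6V1F the interaction had an adjusted p of 0.253. Among the transcripts named by the rule given with the processing, SLAIN2 had the smallest adjusted interaction p, 0.179.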

How the data were processed

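RNA was sequenced from ovarian tissue of 16 sows, and the 8 libraries of day 20 are described here, grouped by their titles. Libraries depleted of ribosomal RNA were paired and strand-specific and were read on an Illumina instrument per the study's methods, and expression per transcript was estimated with RSEM on the pig assembly Sscrofa10.2. The submitters' processing notes also list HISAT2 2.0.1, StringTie 1.0.4 and DESeq2 1.6.3. The strand setting of the counting is not given in the sources used here. The FPKM values deposited by the authors stand in 1 table beside transcript lengths. FPKM scales fragments to length and library total, so that a rise of abundant transcripts depresses every other value.

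Fragments were recovered from transcripts longer than 1500 nt by finding the step at which FPKM times effective length became whole, and 92.4% to 93.8% of the low values of the 8 libraries lay within 0.05 of a whole number. Recovered fragments are estimates and cover counting error only.

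Log2(FPKM + 1) was fitted with limma 3.58.1 in R 4.3.3 (variances moderated toward a trend over the mean; Benjamini-Hochberg adjustment of two-sided p over the 8296 transcripts with at least 0.5 FPKM in 4 or more of the 8 libraries). The interaction was fitted on all 16 libraries. Fold changes on this scale understate the change of low transcripts, and none is given against a group listed at 0, although list medians include the fitted values of such members, which moved a median by at most 0.05. Library measures were compared with exact permutation tests in scipy 1.17.1. The scripts, which were tested on simulated data, used matplotlib 3.10.9, pandas 2.3.3 and numpy 2.4.6 under Python 3.11.15.

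The groups, gene lists and naming rule were chosen with earlier results of these data known. Transcripts were named from the study's differential and microRNA target tables, used for names only, and from a table of gene names. The rule named the 8 transcripts per direction with a symbol, at least 20 fragments and the smallest p among those that passed, the 5 per direction without overlap, also among those that passed, that had the most fragments in the higher group (6 lower ones because of a tie), the network genes of the study, the list members that passed or had the 2 highest levels, and the 10 most abundant with a symbol. Other genes with values, including the set shared by FL2 and FL4 and the deepest transcripts, were chosen after their values were seen.

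Alternatives were median-ratio scaling, filters of 0 and 1 FPKM, a pseudocount of 0.1, quantile normalization, no variance trend, library weights, all 4 groups in one fit, voom on recovered fragments, a replicate block and each library left out. Replicate numbers did not pair the sows. No sequences or positions are given, since no annotation of that assembly was used here. Long non-coding transcripts and small RNA were not analysed here. The values of 1 member of the steroid list are not reported here.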

Additional observations from a re-analysis of the deposited data

Results flagged for a closer look

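Among the 158 groups of 4 values examined, those of the transcripts named by the rule and of the library measures, 23 held a library far from the other 3, by a gap past Dixon's critical value (14.6%, where chance gives about 1 in 20). Of these, 21 were high values, and low counts with several libraries at 0 give such gaps readily in either group.

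In FH, FH1 was the only library above 0 for PAQR5 (4.66 FPKM), LYPD1 (2.17), ERMARD (0.76) and COQ6 (1.82). FH2 was the only library above 0 for OR2L13 (19.3 FPKM), IGF2BP2 (21.7) and HIF1A (6.96), and stood above the other FH libraries for RGS5 (22.7).

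In FL, FL1 was the only library above 0 for GNG2 (2.02 FPKM), FBN1 (0.46) and SMTN (1.06), stood above the others for OR2L13 (50.9) and MDFI (21.8), and lay below them for RPL6 (14.4). FL2 was the only library above 0 for TAS2R39 (11.5 FPKM) and MIB2 (1.53) and stood above the others for HAS1 (60.01) and ENSSSCT00000030741 (86.5). FL3 was the only library above 0 for LHX9 (5.52 FPKM) and RGS5 (2.17) and stood above the others for KLF1 (16.7). FL4 stood above the others for NANOS1 (17.8 FPKM) and below them for TLR10 (7).

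IFN-ALPHA-8 (ENSSSCT00000036437) was the transcript called by the interaction of fecundity and phase over all 16 libraries (limma, adjusted p = 0.0175). Its 17 fragments of day 20 were all in FL, at 46.5, 26.4, 21.4 and 102 FPKM in FL1 to FL4, and every FH library was at 0. The luteal libraries showed the reverse, with 37.5, 61.8, 0 and 112 FPKM for LH1 to LH4 and no fragment in LL. IFN-ALPHA-8 met the filter only through FL and LH, the groups in which it was above 0. The filter thus shaped this separation, and the adjusted p is no independent support for it. In the same interferon family, IFN-OMEGA-7 and IFN-OMEGA-2 had equal FPKM in every follicular library except FH1, with 433 and 0 there. Whether the fragments listed for IFN-ALPHA-8 were assigned to the right copy was not tested.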

How the results depend on the processing

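The count of transcripts past the study's threshold, 366, lay between 337 and 483 under the other settings and between 338 and 431 with each library left out, and no call changed sign under any alternative run. Higher calls numbered 132 to 191 and lower calls 151 to 265 with each library left out. Without both FL2 and FL4, chosen after seeing the data, 235 passed, 85 of them lower, with 244 at an unadjusted p under 0.05 and 1 after adjustment. The higher calls then made up 63.8% of all calls against 44.0%. Part of that shift was fixed by the filter, since a transcript seen only in FL could not be tested there. After adjustment 18 transcripts passed without the variance trend, 6 with all 4 groups in one fit and 29 with voom, 0 to 5 with each library left out (5 without FH2), and 0 under the other settings. The interaction gave 3 transcripts with a pseudocount of 0.1 and 1 under its other alternatives. Of 829 refits of 46 named transcripts, 711 kept the side of the threshold, 103 lost the call, 15 gained it and 0 changed sign. Of the 43 named transcripts that passed, 20 kept the call wherever they could be tested. Without both FL2 and FL4, 18 of the 43 lost it and 10 were no longer tested. Of the 20, PIP4K2C, RASSF8, ZNF114, COL5A1, FOXM1 and KLF1 were each at 0 in a whole group. They met the filter only through the other group, so leaving out a single library could not move their fold change.

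The replicate block gave 346 calls, 149 higher and 197 lower, and 0 after adjustment. The numbers did not pair the sows, since deviations of same-numbered libraries correlated between -0.08 and -0.02. It ended the calls of TLR10, ENSSSCT00000012307, HIF1A, WEE1 and EGFL7. The differences in detected transcripts and in the share of the 10 largest transcripts changed sign with single libraries. That in recovered fragments stayed negative. FH minus FL was -191 detected transcripts (-609.7 to 269 with each library left out) and 0.0085 percentage points in the share of the 10 largest transcripts (-1.20 to 0.66). The causes were not tested. Depth limits transcripts with a mean below 3 fragments per library, 4726 of the 8296 tested.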

Other observations

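Gene families outside the lists were read after their values were seen, so they carry no test of their own. Of all tested transcripts 1.94% rose and 2.47% fell, and transcripts with a symbol passed more often (179 of 1988) because part of the symbols came from the study's differential tables. Of 20 named transcripts of olfactory receptors, which are odorant receptors of the G protein-coupled class, 11 were tested and 4 fell in FH while 0 rose, with a median log2 fold change of -0.52. The 7 fragments of OR52N1 were all in FL, giving 13.4, 12.2, 5.31 and 6.26 FPKM, and every FH library was at 0. OR2T1 stood at 0, 6.37, 0 and 0 FPKM in FH1 to FH4, against 0, 6.25, 59.9 and 38.5 in FL1 to FL4, with FL3 and FL4 above the rest. Without both FL2 and FL4, OR52N1 and OR2T1 would no longer meet the filter. The other members that fell, OR5AK2 and OR2L13, rested on 25 and 23 fragments over the 8 libraries.

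Of 12 named transcripts of interferons alpha, delta and omega, which are antiviral cytokines and in the pig form a large family, 8 were tested, 1 rose and 2 fell, with a median of -0.18. IFN-DELTA-7 stood at 45.9, 19.3, 58.7 and 134 FPKM in FH1 to FH4, against 140, 208, 80.5 and 391 in FL1 to FL4. FL4 was the highest, and FH4 alone lay within the range of FL (log2 fold change -1.74 ± 0.58, SE after the sign, adjusted p = 0.866 with limma). IFN-OMEGA-7 and IFN-OMEGA-2 hold the same FPKM in 7 of the 8 libraries, which marks them as copies whose fragments cannot be told apart.

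Of 64 named solute carriers, which move small molecules across membranes, 38 were tested, 4 rose and 1 fell, with a median of 0.10. Of 58 named zinc finger transcripts of the ZNF group 31 were tested, 1 rose and 4 fell, with a median of -0.14.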
